A study of Homo sapiens with 6 samples.

Results

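The peaks described here are the sites on chromosome 22 at which RNA was recovered with the helicase DHX9 in HEK293 cells, a widely used human cell line of embryonic kidney origin. They were taken from both deposited peak lists by chromosome name, and peaks with a midpoint between 24300000 and 24330000 were left out. This gave 1536 of the 28449 peaks in the lists, or 5.4%. Of these, 394 came from the DHX9-mAb list and 1142 from the DHX9-Rb list. The rule left out 13 DHX9-mAb and 17 DHX9-Rb peaks of the same chromosome. All positions are in the human assembly hg19, counted from 1.

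DHX9 was mapped by FLASH, a cross-linking and immunoprecipitation method. Ultraviolet light ties a protein to the RNA it touches, the protein is captured on beads, and the attached RNA fragments are sequenced. The study used a pair of antibodies against DHX9, labelled DHX9-mAb (Santa Cruz) and DHX9-Rb (Abcam). Control immunoglobulin samples carry the label IgG-Rb. Each of the 3 groups had 2 biological replicates from HEK293 cells, with no treatment given in the labels. Each DHX9 list stands for both replicates of its antibody, and no list of IgG-Rb peaks was used here. The lists hold a position and a strand for each peak, with no height, fold or p-value, so neither a replicate error nor a read depth can stand beside a value. Per the labels, control material was pooled with the DHX9 material ahead of reverse transcription, so the libraries were not fully separate.

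DHX9, also known as RNA helicase A, is a nuclear enzyme that unwinds double-stranded RNA. Among its best-known substrates are hairpins formed by Alu elements, short repeats that are abundant in the introns of human genes. When neighbouring Alu copies of a transcript lie in opposite orientation, their RNA can fold back on itself. Alu elements are most frequent in gene-rich, GC-rich chromosomes, of which chromosome 22 is a well-known example. The short arm of that chromosome carries arrays of ribosomal RNA genes and is largely missing from the assembly, and every peak lay on the long arm. No hg19 gene annotation or sequence was used, so the regions below are named by position and the label "gene-rich" was not checked against these data.

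The first DHX9-mAb peak began at 17634528 and the last ended at 50882497. For DHX9-Rb these bounds were 17632957 and 50882488. Over these 33.2 Mb the DHX9-mAb antibody gave 11.9 peaks per Mb and the DHX9-Rb antibody 34.3. The ratio of DHX9-mAb to DHX9-Rb peaks was 0.345, and that of covered nucleotides 0.322 (DHX9-mAb covered 88206 nt and DHX9-Rb 273898 nt). Both strands were used about equally. On the plus strand were 202 of the peaks recovered with DHX9-mAb (51.3%, 95% Wilson interval 46.3 to 56.2) and 579 of those recovered with DHX9-Rb (50.7%, 47.8 to 53.6). Of all DHX9-mAb peaks, 5.78% were on chromosome 22 (Wilson 5.25 to 6.36), and of all DHX9-Rb peaks 5.29% were (5 to 5.59). This difference did not pass Fisher's exact test (two-sided, odds ratio 1.1, p adjusted by Benjamini-Hochberg over 25 sequences = 0.293), a test that 4 of the 25 sequences passed (16%). Wilson intervals cover counting error only, and peaks of 1 transcript depend on each other, so the p-values here are about the lists and not about repeated experiments.

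The peaks were spread very unevenly along the chromosome. The 3 Mb between 40 and 43 Mb held 139 peaks with DHX9-mAb (35.3% of those on the chromosome) and 375 with DHX9-Rb (32.8%). Within it, the megabase from 41 to 42 Mb was the fullest, with 56 DHX9-mAb and 165 DHX9-Rb peaks. The next was the megabase from 42 to 43 Mb, with 50 and 126 peaks. At the far end, the megabase from 50 to 51 Mb held 40 DHX9-mAb and 105 DHX9-Rb peaks, and the one from 38 to 39 Mb held 34 and 100. Some of these stretches leaned to 1 strand. From 50 to 51 Mb, 38 DHX9-mAb and 85 DHX9-Rb peaks were on the plus strand. From 32 to 33 Mb the minus strand held all 24 DHX9-mAb peaks and 58 of the 63 DHX9-Rb peaks. From 36 to 37 Mb all 17 DHX9-mAb and all 35 DHX9-Rb peaks were on the minus strand.

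**Figure D1:**
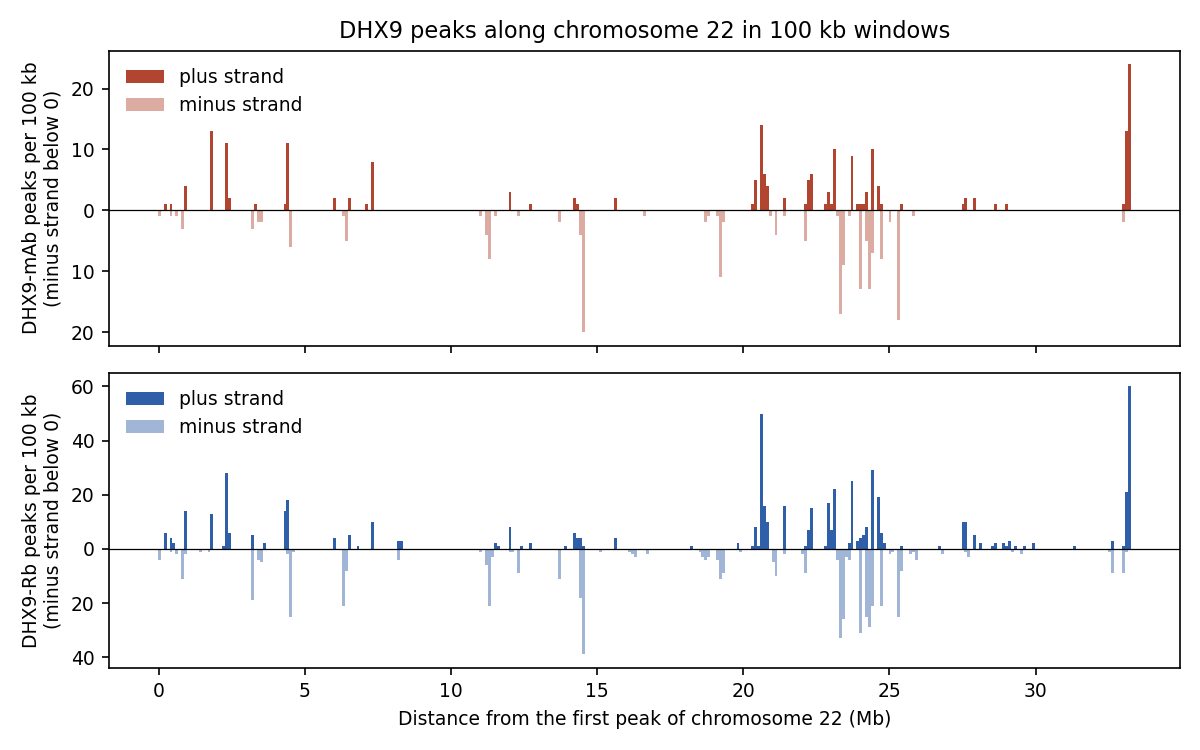
Peaks per 100 kb window along chromosome 22, by distance in Mb from the first peak, with plus-strand peaks above 0 and minus-strand peaks below it, for DHX9-mAb (top) and DHX9-Rb (bottom, with a larger scale). The tallest bar of both antibodies is the plus-strand window at the far end, with 24 DHX9-mAb and 60 DHX9-Rb peaks.

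In windows of 100 kb, peaks were placed by their midpoint. Of the 333 windows from the first to the last peak, 128 held at least 1 peak (38.4%) and 205 held none. DHX9-mAb had peaks in 81 windows and DHX9-Rb in 124, and 77 windows had peaks of both. The median was 2 DHX9-mAb peaks over the 81 windows with such a peak, and 4 DHX9-Rb peaks over the 124 windows with one. On chromosome 19, with 17.5 DHX9-mAb and 49.4 DHX9-Rb peaks per Mb, 45.6% of 588 windows were occupied, and on chromosome 17, with 7.78 and 27.9 peaks per Mb, 33.3% of 804. Across the 128 windows the numbers of the antibodies ran together (Spearman's rho 0.807), as on chromosomes 19 (0.819) and 17 (0.787). Windows are not replicates and share the same libraries, so no p-value is given.

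The 10 windows with the most peaks held 156 DHX9-mAb peaks (39.6%) and 383 DHX9-Rb peaks (33.5%). For the 10 fullest windows of chromosome 19 the shares were 28.6% and 19.4%, and for those of chromosome 17 they were 25.9% and 21%. The shares were not tested, since the chromosomes differ in their number of windows. The fullest window, at 50.8 Mb, had 24 DHX9-mAb and 60 DHX9-Rb peaks from 50804120 to 50882497, all on the plus strand. It ranked 15 among the 3429 windows of the genome with a DHX9-Rb peak. The window at 42 Mb had 17 DHX9-mAb peaks, 10 plus and 7 minus, and 50 DHX9-Rb peaks, 29 plus and 21 minus, from 42001615 to 42082348. It was the window of the 10 with the most even use of both strands. The window at 38.2 Mb had 14 DHX9-mAb and 50 DHX9-Rb peaks, all on the plus strand and all within 38252026 to 38286233.

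The other 7 windows of this group were mostly on the minus strand. From 32100643 to 32170509 there were 20 DHX9-mAb and 40 DHX9-Rb peaks, of which a single DHX9-Rb peak was on the plus strand. From 40900404 to 41000059 there were 17 and 33 peaks, all minus. The stretch from 41607213 to 41681197 had 14 DHX9-mAb peaks, 13 of them minus, and 35 DHX9-Rb peaks, 31 of them minus. A window whose peaks ran from 42912320 to 42995276 had 18 and 25 minus-strand peaks, the smallest surplus of DHX9-Rb among the 10. Minus-strand peaks also filled 41931453 to 41998518, where 13 were of DHX9-mAb and 29 of DHX9-Rb. From 41811228 to 41863280 there were 8 DHX9-mAb peaks, 5 of them minus, and 33 DHX9-Rb peaks, 25 of them minus. The exception was the window at 19.9 Mb, where all 11 DHX9-mAb and all 28 DHX9-Rb peaks were on the plus strand, from 19930110 to 19943018.

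**Figure D2:**
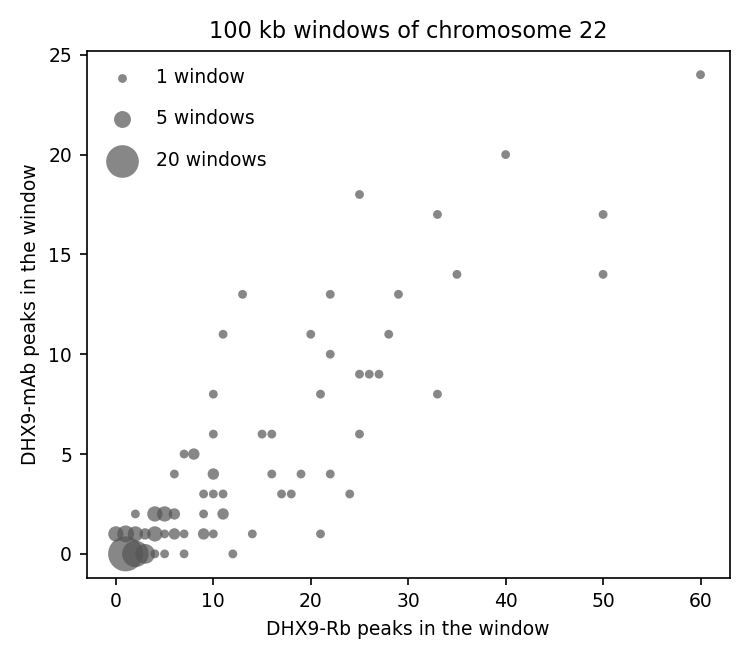
DHX9-mAb peaks (vertical axis) against DHX9-Rb peaks (horizontal axis) in each occupied 100 kb window of chromosome 22; the area of a point grows with the number of windows at that place. The numbers rise together, from many windows with a few peaks to the window with 24 DHX9-mAb and 60 DHX9-Rb peaks.

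No window of chromosome 22 passed the test of a difference between the antibodies after correction. A two-sided Fisher's exact test with Benjamini-Hochberg adjustment compared the part of each list in the 817 windows of the genome with at least 10 peaks and passed 0.05 in 6 windows (0.734%). Of the 48 such windows on chromosome 22, 0 passed. Before adjustment 4 of the 48 had a p under 0.05 (8.33%, against 6.61% of the 817 windows). In 3 of these the DHX9-mAb list had the larger part. The first, from 19486688 to 19493015, had 13 DHX9-mAb and 13 DHX9-Rb peaks, all on the plus strand (odds ratio 3.17, exact p = 0.00434, adjusted p = 0.26). The second, from 36880012 to 36889234, had 11 and 11 peaks, all on the minus strand (3.17, exact p = 0.00957, adjusted p = 0.434). The third was the minus-strand window from 42912320 to 42995276 named above (odds ratio 2.28, exact p = 0.011, adjusted p = 0.448). In the fourth, from 23984189 to 23999257, DHX9-mAb had 1 minus-strand peak and DHX9-Rb had 21 (odds ratio 0.151, exact p = 0.0413, adjusted p = 0.688).

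Of the 124 windows with a DHX9-Rb peak, 77 also held a DHX9-mAb peak. This held for 165 of 265 such windows on chromosome 19 and 161 of 268 on chromosome 17. The windows of chromosome 22 marked by DHX9-Rb alone were small. There were 47 of them with 98 DHX9-Rb peaks in all, and 23 held a single peak. The largest, between 50204856 and 50273131, held 0 DHX9-mAb and 12 DHX9-Rb peaks, 3 plus and 9 minus (Fisher's exact p = 0.0824, adjusted p = 0.731). It was the only window with at least 10 DHX9-Rb peaks, of 40, that lacked a DHX9-mAb peak. The 4 windows with DHX9-mAb alone held 1 peak each. These peaks were at 20915353 to 20915516 and 24782770 to 24783028 on the plus strand and at 34299312 to 34299475 and 38532107 to 38532303 on the minus strand.

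Along a strand, peaks formed runs. A run is a series of peaks of 1 list on 1 strand with gaps of at most 5 kb. The DHX9-mAb peaks formed 121 runs, of which 60 were single peaks, and the DHX9-Rb peaks formed 227, of which 85 were single. Runs of at least 10 peaks numbered 11 with DHX9-mAb and 36 with DHX9-Rb (7 and 35 with gaps of at most 2 kb). These 11 runs held 34.3% of the DHX9-mAb peaks of chromosome 22, against 24% in such runs on the other sequences. This share was 22.3% against 18.1% with gaps of at most 2 kb, and 21.1% against 18.7% when peaks within 50 nt were merged. The 36 DHX9-Rb runs, 18 on each strand, held 58.1% of the DHX9-Rb peaks, against 42.5% elsewhere. Of the 36, 35 held a DHX9-mAb peak on the same strand, as did 446 of the 458 such runs on the other sequences. In the runs of at least 10 peaks the median share of the span covered by peaks was 40.5% with DHX9-mAb and 38.4% with DHX9-Rb. Neighbours on a strand were a median of 760.5 nt apart with DHX9-mAb, against 1366 nt on the other sequences. With DHX9-Rb the median gap was 371.5 nt, against 529.5 nt elsewhere. The part of peak density in these differences was not tested.

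The DHX9-Rb run with the most peaks was on the plus strand from 38252026 to 38286233. Its 34.2 kb held 14 DHX9-mAb peaks, each with a partner in the other list, and 50 DHX9-Rb peaks, of which 18 (36%) had one. Among the DHX9-Rb runs of the whole genome it ranked 12. Its DHX9-Rb peaks were between 112 and 480 nt wide and covered 38.2% of the span. Its place as the fullest run depends on the permitted gap. With gaps of at most 2 kb the fullest part of it held 33 DHX9-Rb peaks, as many as a plus-strand run from 50810260 to 50829748, and with gaps of up to 10 kb the fullest run had 56 DHX9-Rb peaks and reached from 50785804 to 50829748.

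The next run lay beside one of the opposite strand. From 41982354 to 42017042, 16 DHX9-mAb and 37 DHX9-Rb peaks lay on the minus strand. A plus-strand run with 9 DHX9-mAb and 19 DHX9-Rb peaks began 942 nt further on and reached from 42017985 to 42030477. Transcripts of the 2 strands would run away from each other here. This was the only pair of runs of at least 10 DHX9-Rb peaks with opposite strands and at most 20 kb between them. Within each list, no peak of chromosome 22 faced a peak on the opposite strand (0 of 394 DHX9-mAb and 0 of 1142 DHX9-Rb peaks). No count for the other sequences stands beside these, so nothing particular to chromosome 22 is drawn from them.

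The last megabase held several plus-strand runs in a row. From 50785804 to 50796028 there were 13 DHX9-mAb and 21 DHX9-Rb peaks over 10.2 kb. The next, from 50810260 to 50829748, had 8 and 33 peaks over 19.5 kb. A further run from 50842022 to 50853092 had 11 and 19 peaks. The share of DHX9-Rb peaks that overlapped a DHX9-mAb peak was 57.1% in the first of these runs, 24.2% in the second and 57.9% in the third.

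The remaining long DHX9-Rb runs differed in how tightly they were packed. The plus-strand run from 19930110 to 19943018 held 11 DHX9-mAb and 28 DHX9-Rb peaks, and its DHX9-Rb peaks covered 60% of 12.9 kb. The minus-strand run from 32134780 to 32144751 held 8 and 22 peaks and was covered to 53.4%. Others were loose. From 40918868 to 40947595, 11 DHX9-mAb and 25 DHX9-Rb peaks lay on the minus strand, and DHX9-Rb covered 18.7% of 28.7 kb. From 40999925 to 41025990, 10 and 26 peaks lay on the minus strand, with 21.1% of 26.1 kb covered. The minus-strand run from 41663706 to 41681197 held 12 and 27 peaks (34.7% covered). The run from 42323861 to 42338552, also minus, held 8 and 21 (42.5% covered). The minus-strand run from 23984189 to 23999257 had 1 DHX9-mAb peak, 202 nt wide, and 21 DHX9-Rb peaks over 15.1 kb, of which 4.76% had a partner.

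**Figure D3:**
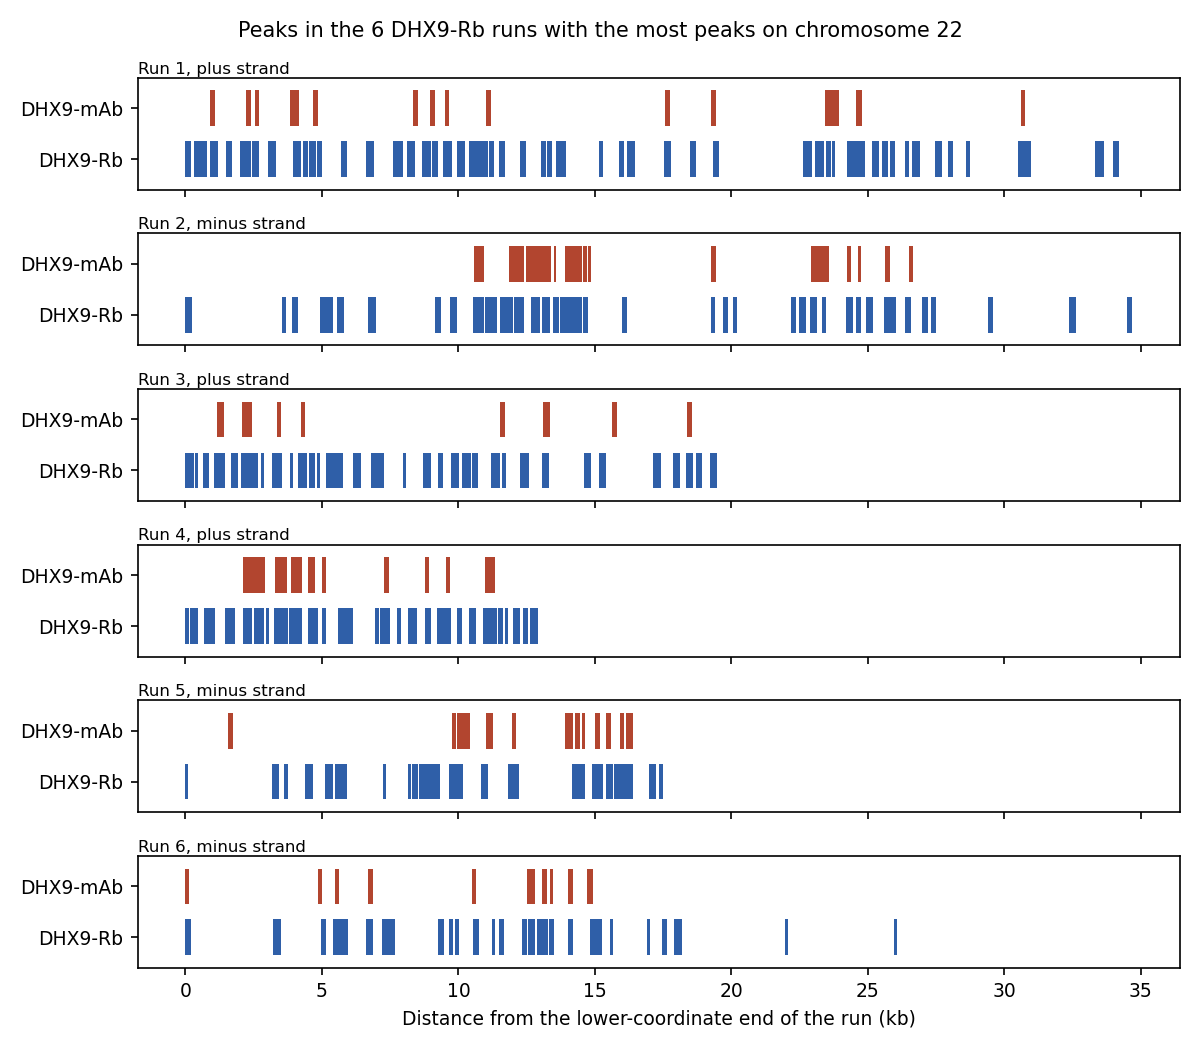
Peaks of DHX9-mAb (upper row) and DHX9-Rb (lower row) in the 6 DHX9-Rb runs with the most peaks on chromosome 22, by distance in kb from the end of the run with the lower coordinate; each block is a peak drawn to scale. The runs hold between 8 and 16 DHX9-mAb peaks and between 26 and 50 DHX9-Rb peaks.

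Seen from the DHX9-mAb list, the run with the most peaks was on the minus strand from 42957901 to 42968033, with 17 DHX9-mAb peaks and 15 DHX9-Rb peaks over 10.1 kb. All 17 DHX9-mAb and all 15 DHX9-Rb peaks overlapped a peak of the other antibody. With gaps of up to 10 kb the run with the most DHX9-mAb peaks was another, with 22 on the plus strand from 50787861 to 50828803. When peaks within 50 nt were merged, the runs from 42957901 to 42968033 and from 41992937 to 42009010 tied at 12 DHX9-mAb peaks. The DHX9-mAb peaks of the run at 42957901 were a median of 222 nt wide and the DHX9-Rb peaks 419 nt, and the DHX9-mAb peaks covered 4328 nt and the fewer DHX9-Rb peaks 6165 nt. The second run, from 41992937 to 42009010 on the minus strand, had 16 DHX9-mAb and 24 DHX9-Rb peaks. A plus-strand run from 19486710 to 19492811 had 13 DHX9-mAb and 12 DHX9-Rb peaks, with median widths of 346 and 343 nt, and DHX9-mAb covered 67.9% of its 6.1 kb. From 50787861 to 50795594 there were 13 DHX9-mAb and 18 DHX9-Rb peaks on the plus strand. From 32100643 to 32106596 there were 12 and 12 on the minus strand. The antibodies gave equal or nearly equal numbers in 3 of these 5 runs. The runs were ranked by their DHX9-mAb peaks, which raises the DHX9-mAb number, so nothing is drawn from that balance.

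Long stretches without a peak separated the dense regions. There were 17 stretches of at least 500 kb with no peak of either list on either strand, which made up 16.4 Mb or 49.3% of the span. Of these, 6 were at least 1 Mb long. The longest lay between 25910765 and 28628712, a length of 2.72 Mb. The next ran from 34303303 to 35841722 (1.54 Mb), from 47515786 to 48998963 (1.48 Mb), from 22268675 to 23641920 (1.37 Mb), from 48999094 to 50199702 (1.2 Mb) and from 30325340 to 31356608 (1.03 Mb). The third and the fifth were separated by a single plus-strand DHX9-Rb peak, 132 nt wide, at 48998963 to 48999094. Shorter stretches lay from 24972905 to 25834322 (861.4 kb), from 43574246 to 44325894 (751.6 kb), from 20089846 to 20827585 (737.7 kb) and from 44418007 to 45118709 (700.7 kb).

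Sparse islands lay between some of these stretches. Between 25834322 and 25910765 there were 0 DHX9-mAb and 10 DHX9-Rb peaks, and between 44325894 and 44418007 there were 0 and 3. From 45118709 to 47515786 there were 7 DHX9-mAb and 47 DHX9-Rb peaks. By contrast, the 7732.5 kb from 35841722 to 43574246 held 213 DHX9-mAb and 583 DHX9-Rb peaks. DHX9-mAb alone left longer stretches open, the longest of 3.95 Mb from 46698180 to 50645763 and another of 3.66 Mb from 24972905 to 28628764. That list also had fewer peaks (394 against 1142), and the part of peak number in the longer stretches was not tested. Whether these stretches hold transcribed or uniquely mapped sequence was not tested.

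Nearly all DHX9-mAb peaks had a DHX9-Rb partner. A peak was taken as partnered where a peak of the other list on its strand shared at least 1 nt with it. On chromosome 22 this held for 356 of the 394 DHX9-mAb peaks (90.4%, Wilson 87 to 92.9), against 5642 of 6424 on the other sequences (87.8%, 87 to 88.6). The difference did not pass Fisher's exact test (two-sided, odds ratio 1.3, p adjusted over 25 sequences = 0.314), which 3 of the 25 passed (12%). From the other side, 367 of 1142 DHX9-Rb peaks had a DHX9-mAb partner (32.1%, Wilson 29.5 to 34.9), against 5793 of 20459 elsewhere (28.3%, 27.7 to 28.9). This passed (Fisher's exact test, odds ratio 1.2, adjusted p = 0.016), but 15 of the 25 sequences did so, chromosome 22 included (60%). They passed in either direction, such as chromosome 19 with a higher share (32.8%) and chromosome 7 with a lower one (22.3%). Chromosome 22 ranked 6 by this share among all 25 sequences, of which the first had 1 DHX9-Rb peak. The difference no longer passed where at least 50% of the DHX9-mAb peak had to be covered (26.5% against 23.9%, exact test, adjusted p = 0.0858). In nucleotides, 67347 were covered by both antibodies on chromosome 22, making up 76.4% of what DHX9-mAb covered and 24.6% of what DHX9-Rb covered.

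The share of DHX9-Rb peaks with a DHX9-mAb partner was lowest for peaks that stood alone. It was 9 of 85 (10.6%, Wilson 5.67 to 18.9) for single peaks and 38 of 209 (18.2%, 13.5 to 24) in runs of 2 to 4. In runs of 5 to 9 it was 67 of 184 (36.4%, 29.8 to 43.6), in runs of 10 to 19 it was 124 of 333 (37.2%, 32.2 to 42.5), and in runs of 20 or more it was 129 of 331 (39%, 33.9 to 44.3). On the other sequences the shares in the same order were 15.3%, 22.1%, 27.6%, 32.6% and 39.1%. The median width of the DHX9-Rb peaks moved with run size as well, with 176 nt for single peaks of chromosome 22 and 240 nt in the runs of 20 or more. The part of width and of crowding in these shares was not tested. Since more of the DHX9-Rb peaks of chromosome 22 lay in runs of at least 10 (58.1% against 42.5%), run size differed along with the share of partnered peaks, and its part in that difference was not tested either.

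**Figure D4:**
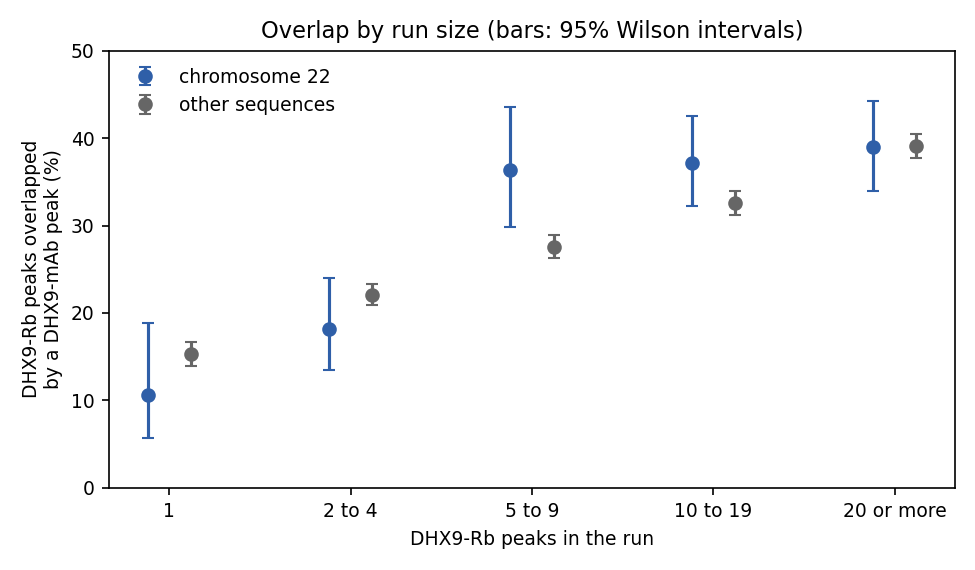
Share of DHX9-Rb peaks overlapped by a DHX9-mAb peak (vertical axis, percent) by the number of DHX9-Rb peaks in the run (horizontal axis), on chromosome 22 and on the other sequences, with 95% Wilson intervals. On chromosome 22 the share is 10.6% for single peaks and 39% in the runs of 20 or more.

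Partners overlapped closely. Among 254 pairs in which each peak had a single partner, the midpoints were a median of 31 nt apart (interquartile range 14.5 to 64.8), and in 170 pairs (66.9%) they were within 50 nt. On the other sequences the median was 27.5 nt over 4298 pairs, and 70.5% of them were within 50 nt. On chromosome 22 the DHX9-mAb peak lay wholly inside the DHX9-Rb peak in 112 pairs (44.1%, Wilson 38.1 to 50.2), the DHX9-Rb peak inside the DHX9-mAb peak in 29 (11.4%), and the peaks overlapped in part in 113 (44.5%). In the same order, these shares were 39.4%, 15.5% and 45.1% on the other sequences. The median DHX9-mAb peak of a chromosome 22 pair was 188 nt wide and the median DHX9-Rb peak 256 nt. Read along the RNA, the 5′ end of the DHX9-mAb peak was a median of 14.5 nt downstream of that of its partner, and its 3′ end was 33 nt upstream (a difference of -33). On the other sequences these median differences were 8 nt and -17 nt. In addition, 53 DHX9-mAb peaks overlapped more than 1 DHX9-Rb peak, and 40 DHX9-Rb peaks overlapped more than 1 DHX9-mAb peak.

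A border was shared to the base in 9 overlapping pairs, by their first base in 6 and their last base in 3, and in 0 pairs by both. First and last are by coordinate, so on the minus strand the first base is the 3′ end. Chromosome 22 had 411 overlapping pairs, 254 of them with single partners, and the other sequences 6351 and 4298. On those sequences a first base was shared in 100 pairs, a last base in 89 and both in 7, so nothing particular to chromosome 22 is drawn from the 9. In a plus-strand pair both peaks began at 39903497, and the DHX9-mAb peak ended at 39903588 and the DHX9-Rb peak at 39903590. At 43011244, also on the plus strand, the DHX9-mAb peak was 167 nt wide and the DHX9-Rb peak 165 nt. The pair on the minus strand with last base 28989442 was 104 nt wide in the DHX9-mAb list and 113 nt wide in the DHX9-Rb list. In the pair from 42958411 on the minus strand the widths were 248 nt and 519 nt.

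The 38 DHX9-mAb peaks without a partner mostly lay near one. Of these, 29 were within 1 kb of a DHX9-Rb peak on the same strand and 33 within 5 kb, and the median distance was 275 nt. The 2 farthest were the plus-strand peak at 24782770, which lay 183.9 kb from the nearest DHX9-Rb peak of its strand, and the minus-strand peak at 38532107, which lay 131.7 kb away. The peaks left out between 24300000 and 24330000 were not counted in these distances. No such distances are given for the other sequences. Of the gaps between DHX9-Rb neighbours on a strand of chromosome 22, 68% were under 1 kb. The part of this density in the distances was not tested.

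Peaks of chromosome 22 were somewhat wider than those elsewhere with DHX9-Rb. The median DHX9-mAb peak was 197 nt wide (interquartile range 148 to 271.5, range 52 to 667), against 191 nt on the other sequences. The median DHX9-Rb peak was 213 nt wide (160 to 298.5, range 45 to 808), against 200 nt. With DHX9-mAb, 52% of the peaks exceeded the median width of the list, against 49.5% of those elsewhere (Fisher's exact test, two-sided, adjusted p = 0.573, a test that 16% of the 25 sequences passed). With DHX9-Rb the share was 55.2% against 49.4% (Fisher's exact test, odds ratio 1.26, adjusted p = 6.73e-04), and 36% of the sequences passed. These went in either direction, such as chromosome 19 with a higher share (57.3%) and chromosome 2 with a lower one (39.1%). On chromosome 19 the median DHX9-mAb peak was 210 nt wide and the median DHX9-Rb peak 220 nt, and on chromosome 17 they were 188 and 201 nt wide.

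Wide peaks were often shared. Widths of 400 nt or more occurred in 35 DHX9-mAb peaks (8.88%, Wilson 6.46 to 12.1) and 127 DHX9-Rb peaks (11.1%, 9.43 to 13.1), against 5.85% and 7.48% on the other sequences. These shares were 7.52% and 11.3% on chromosome 19 and 4.35% and 6.66% on chromosome 17. On chromosome 22 all 35 of the wide DHX9-mAb peaks had a partner, as did 71 of the 127 wide DHX9-Rb peaks. On the other sequences this held for 354 of 376 wide DHX9-mAb peaks and 829 of 1530 wide DHX9-Rb peaks. Overlap is more likely for a wide peak by its size alone. The median width on chromosome 22 was 202.5 nt for DHX9-mAb peaks with a partner and 159 nt for those without (195 and 164.5 nt elsewhere). It was 256 nt for DHX9-Rb peaks with a partner and 198 nt for those without (242 and 190 nt elsewhere).

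The widest DHX9-mAb peak, 667 nt, lay on the minus strand from 36913691 to 36914357. It was followed by peaks of 644 nt from 41996242 (minus), 614 nt from 50849385 (plus), 547 nt from 39903783 (plus) and 540 nt from 50788089 (plus), all of which overlapped a DHX9-Rb peak. The widest DHX9-Rb peak, 808 nt, ran on the minus strand from 32104359 to 32105166. The next were 757 nt from 19490847 (plus), 657 nt from 24969202 (plus), 649 nt from 22148557 (minus) and 637 nt from 42019530 (plus). Of these 5 DHX9-Rb peaks, the one of 657 nt had no DHX9-mAb partner. At the other end, 18 DHX9-mAb and 45 DHX9-Rb peaks were narrower than 100 nt.

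**Figure D5:**
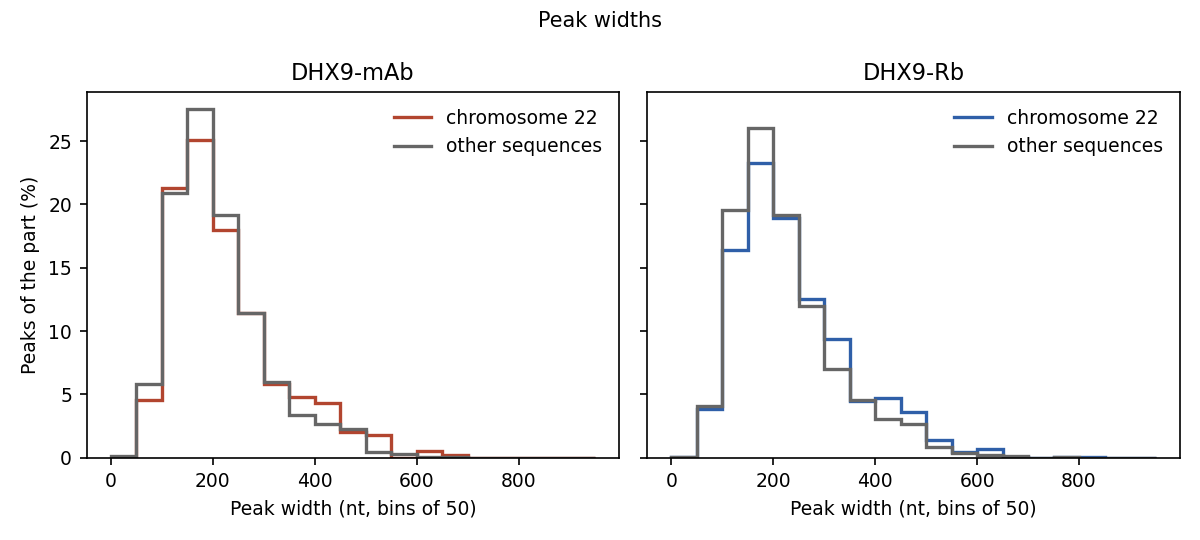
Distribution of peak widths in bins of 50 nt (horizontal axis) as a percent of the peaks (vertical axis), on chromosome 22 and on the other sequences, for DHX9-mAb (left) and DHX9-Rb (right). With DHX9-Rb the chromosome 22 curve is lower in the bin from 150 nt (23.3% against 26%) and higher in the bin from 300 nt (9.37% against 7.05%), with medians of 213 nt on chromosome 22 and 200 nt elsewhere.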

How the data were processed

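Per the labels' protocols, HEK293 cells were irradiated with ultraviolet light (0.15 mJ/cm2, per the labels), the protein was captured on antibody-coated beads, RNA was trimmed with RNase I, and barcoded adapters with random bases, used to merge PCR duplicates, were ligated. Bowtie2 2.2.6 and the hg19 assembly are named in the submitters' processing notes. Per the files' second column, the authors called the deposited peaks with PEAKachu. Not given in the sources used here are its version and settings, the control used, the handling of reads from repeats and the merging of replicates. The score column of the deposited lists holds 0 numbers, and the values used are positions and strands. Peak numbers and widths depend on the caller's settings.

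Positions are in hg19; 24 DHX9-mAb and 60 DHX9-Rb peaks began beyond the last GRCh38 gene of chromosome 22, so that annotation was not used. Some peaks of a list overlap on a strand, and covered nucleotides count such bases once. All tests were fitted over every sequence or window, without the peaks left out at 24300000 to 24330000; those peaks still end an empty stretch. The regions named are the 10 fullest windows, the 10 DHX9-Rb and 5 DHX9-mAb runs with the most peaks, the 10 longest empty stretches, windows with at least 8 DHX9-Rb and 0 DHX9-mAb peaks or with DHX9-mAb peaks alone, the 5 widest peaks of each list and pairs sharing a border; the other regions were picked after their values were seen. Members and rules were chosen with earlier results of these data known. Functions were tested on simulated data. Python 3.11.15, NumPy 2.4.6, SciPy 1.17.1, pandas 2.3.3 and matplotlib 3.10.9 were used.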

Additional observations from a re-analysis of the deposited data

How the results depend on the processing

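Of 38 alternative settings, 31 kept both the direction and the side of the threshold, or stayed within 1.5 times the value. The share of DHX9-Rb peaks with a partner on chromosome 22 no longer passed the test against the rest where at least 50% of the DHX9-mAb peak had to be covered (26.5% against 23.9%, Fisher's exact test, adjusted p = 0.0858) or 50% of both peaks (20.8% against 19.5%, adjusted p = 0.436). With 50% of both peaks covered, the share of DHX9-mAb peaks turned to 60.4% against 62.2% elsewhere (exact test, adjusted p = 0.677). The cause was not tested. DHX9-mAb runs of at least 10 peaks numbered 7 rather than 11 with gaps of up to 2 kb, since shorter gaps split runs, and also 7 when peaks within 50 nt were merged, since merging lowers peak numbers. Empty stretches numbered 32 at a minimum of 300 kb and 6 at a minimum of 1 Mb, by construction. The window test called 0 windows of chromosome 22 under all 6 alternatives (smallest adjusted p between 0.118 and 0.518), with 3 or 4 windows under an unadjusted exact p of 0.05. The settings for window occupancy and median width were chosen after seeing the data. No paired analysis was possible because each list stands for both replicates of its antibody, and for the same reason no replicate could be left out. Without read depth, a peak missing from 1 list cannot be told apart from a site that was covered too thinly to be called.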
